A study of Rattus norvegicus with 138 samples.

Results

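The 70 genes described here carry the names of mitochondrial ribosomal proteins and were measured in rat tibialis anterior (TA) muscle after volumetric muscle loss (VML). They were taken from the 16181 gene symbols of the expression table by name alone, as every symbol that is Mrpl or Mrps followed by a number, which gave 42 genes named for the large subunit (Mrpl) and 28 named for the small subunit (Mrps). The rule uses no measured value, although it was set with earlier results of these data known, and all 70 passed the filter on low values. The muscles came from Lewis rats, male according to the study's methods. Control muscles were the TA muscles of rats labelled Sham at day 0, which had no VML injury, no repair and no running (4 muscles of 2 rats). Operated rats had a full-thickness punch biopsy of 1 TA muscle and were studied 3, 7, 14 or 28 days post injury (DPI). Their injured muscles are set against contralateral muscles, the uninjured TA muscles of operated rats. Non-repaired injuries received nothing, and repaired injuries received a minced muscle graft (MMG), which is finely cut muscle placed into the defect. Each kind was studied with and without running, labelled Run and NoRun. Expression was measured by RNA sequencing of the muscle and is given in TPM, the number of a gene's transcripts in a fixed total of all transcripts, corrected for length, so that levels of different genes can be compared.

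The mitochondrial ribosome translates the few proteins encoded in mitochondrial DNA, which are core subunits of the oxidative phosphorylation complexes. Its proteins are encoded in the nucleus, made by cytosolic ribosomes and imported, and its RNAs come from mitochondrial DNA. Skeletal muscle fibres are rich in mitochondria. Some proteins named in the Mrps series sit elsewhere: Mrps30 and Mrps18a belong to the large subunit in structures of the mammalian mitoribosome, and the product of Mrps36, which RefSeq lists as Kgd4, is a component of the 2-oxoglutarate dehydrogenase complex of the citric acid cycle. Mrps36 was kept among the 70 genes for its symbol.

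Of 138 libraries, 13 with fewer than 7000 symbols above 1 TPM were left out, and 9 whose labels did not fix the muscle or the day were placed in no group. The kept libraries held 7866 to 10948 symbols above 1 TPM and made up 114 muscles of 78 rats in 31 groups. The deposited values were TPM, which keep no read depth, so no counting interval is given. The control rats carry another number series than the operated rats, so injury and rat series cannot be told apart in comparisons with control.

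Promoter windows from RefSeq (build GRCr8, 250 bases before to 50 bases after the start) were found for 56 of the 70 genes. Stretches of 6 of them are printed because members moved apart after injury. Motifs known from promoters of nuclear genes for mitochondrial proteins were searched on both strands, namely CCGGAAG, the core bound by ETS factors such as GABP, TGCGCA, part of the NRF1 site, and AAGATGG, part of the YY1 site. CCGGAAG was present in 33.9% of the members' windows, 16.5% of those of the tested genes and 9.22% of all windows. TGCGCA was present in 26.8%, 13.1% and 7.68%, and AAGATGG in 26.8%, 7.86% and 7.30%. The GC box GGGCGG was in 53.6% of the members' windows and 61.4% of those of tested genes, the E-box CACGTG in 10.7% and 9.23%, and the TATA sequence TATAAA in 12.5% and 7.58%. No motif contains another, but matches may overlap and a window can hold several. Shown here 5′ to 3′ on the gene's strand are bases before the start of 6 genes, with the searched motifs or their reverse complements in capitals. On the TPM scale Mrpl52, Mrpl17 and Mrpl45 rose after injury, and Mrps15, Mrps18b and Mrps5 fell.
Mrpl52, chr15:31852777-31852926, plus strand: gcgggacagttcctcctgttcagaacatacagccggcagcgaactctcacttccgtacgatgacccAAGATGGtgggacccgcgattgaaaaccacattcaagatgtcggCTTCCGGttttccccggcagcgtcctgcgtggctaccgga
Mrpl17, chr1:169575700-169575849, minus strand: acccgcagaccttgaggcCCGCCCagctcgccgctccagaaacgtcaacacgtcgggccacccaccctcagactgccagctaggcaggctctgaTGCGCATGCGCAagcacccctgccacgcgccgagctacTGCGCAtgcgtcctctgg
Mrpl45, chr10:82804889-82805038, plus strand: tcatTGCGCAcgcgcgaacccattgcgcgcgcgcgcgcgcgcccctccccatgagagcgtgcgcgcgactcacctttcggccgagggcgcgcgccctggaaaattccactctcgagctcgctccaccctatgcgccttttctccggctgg
Mrps15, chr5:143605991-143606140, plus strand: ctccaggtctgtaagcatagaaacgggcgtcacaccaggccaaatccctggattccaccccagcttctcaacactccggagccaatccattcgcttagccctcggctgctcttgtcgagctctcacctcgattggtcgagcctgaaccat
Mrps18b, chr20:2842828-2842977, plus strand: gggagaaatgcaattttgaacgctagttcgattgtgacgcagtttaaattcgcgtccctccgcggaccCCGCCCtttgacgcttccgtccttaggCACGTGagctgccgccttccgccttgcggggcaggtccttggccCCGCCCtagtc
Mrps5, chr3:135274183-135274332, plus strand: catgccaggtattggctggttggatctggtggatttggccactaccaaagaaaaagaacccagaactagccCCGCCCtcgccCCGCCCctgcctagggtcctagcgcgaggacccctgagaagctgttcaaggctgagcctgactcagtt
These 6 genes were picked with their changes known. Over the whole windows, TGCGCA was present in 42.3% of the 26 members with a window that were higher than control at 7 DPI on the TPM scale. It was present in 3 of the 15 that were lower, a description that was not tested. CCGGAAG was present in 38.5% and 26.7%, and AAGATGG in 30.8% and 26.7% of the same genes. GGGCGG was present in 53.8% and 66.7%, CACGTG in 3.85% and in 3 of the 15, and TATAAA in 7.69% and 6.67%.

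In control muscle the members differed widely in level, although the proteins are built into a particle with a fixed make-up. The mean control level had a median of 54.95 TPM over the 70 genes. The highest was Mrpl54, with 232.3, 269.1, 279.2 and 283.4 TPM in the 4 muscles, followed by Mrps36 at 191.3 ± 10.89 (SD, n = 4), Mrpl27 at 173.6 ± 5.56, Mrpl17 at 149.6 ± 20.29 and Mrpl42 at 146.0 ± 14.01. These 5 genes made up 19.35% of the summed level. The lowest was Mrps2, with a mean of 14.29 ± 3.19 TPM (SD, n = 4), below Mrps27 at 23.13 ± 5.16, Mrpl47 at 25.57 ± 4.80, Mrpl10 at 25.77 ± 3.43 and Mrps17 at 26.82 ± 2.75. In the order of levels, 67 of the 69 pairs of neighbours overlapped in the range of their 4 muscles, and the exceptions were Mrpl54 above Mrps36 and Mrps21 above Mrpl23.

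The summed level of the family in non-repaired, non-running injured muscle overlapped that of control on every day on the TPM scale. In control muscle it ran from 4280 to 5078 TPM, with a mean of 4788 ± 349.9 (SD, n = 4). In non-repaired, non-running injured muscle the mean was 4933 ± 204.8 (n = 3), 5040 ± 559.8 (n = 8), 4515 ± 136.9 (n = 4) and 4670 ± 427.4 (n = 4) on days 3, 7, 14 and 28, and each range overlapped that of control. At 7 DPI 1 rat (011) stood apart, with 3696 TPM beside a group median of 5179. In its library 16.2% of TPM lay in 5 rRNA symbols, against 0.083% to 0.291% in the other 7 of the group, and the part of this in the low sum was not tested. Without this rat 32 members were called higher and 19 lower than control at 7 DPI, in the test described next, beside 79.7% and 8.69% of all tested genes in the same fit. Across the 31 groups the means ran from 4306 TPM in running non-repaired injured muscle at 28 DPI to 6315 TPM in running non-repaired contralateral muscle at 3 DPI, whose 2 muscles held 6186 and 6444 TPM and lay above every other muscle in the model. The injured muscles of the same 2 rats held 4067 and 4385 TPM. In each of the 8 rats with both muscles at 3 DPI the injured muscle had the lower sum, with 4755 and 4593 TPM beside 5556 and 5084 in running graft rats, 5108 and 4984 beside 5436 and 5104 in non-running non-repaired rats, and 4784 and 4930 beside 5208 and 5221 in non-running graft rats. These pairs are a description with no test.

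**Figure D1:**
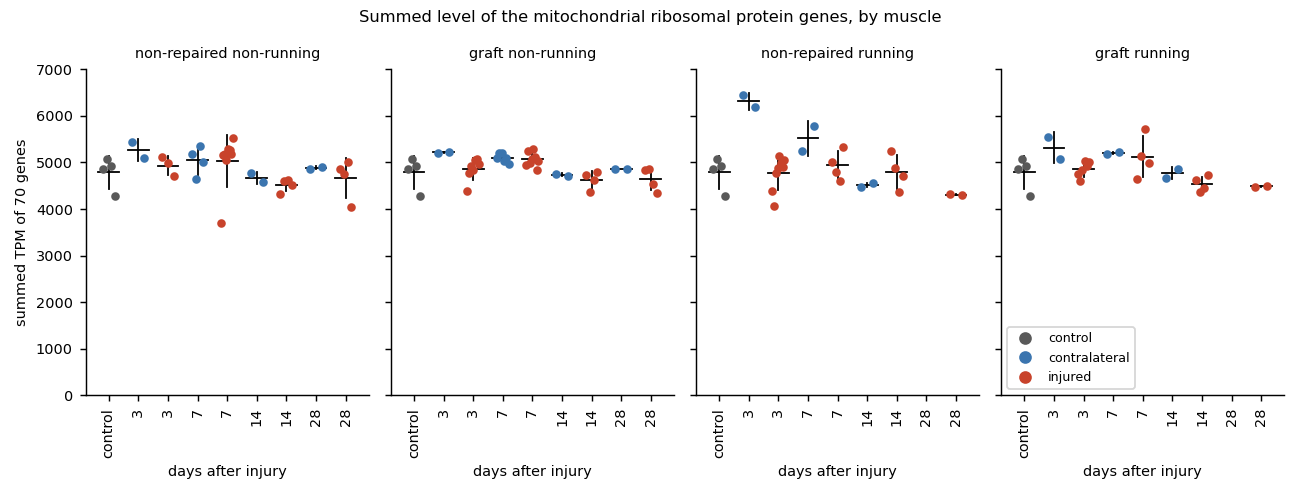
Summed TPM of the 70 genes in each muscle (y axis, TPM) by days after injury (x axis), 1 panel for each combination of repair and running; points are muscles, horizontal bars are means and vertical bars are SD. Control muscles have a mean of 4788 TPM, and the 2 running non-repaired contralateral muscles at 3 DPI, at 6186 and 6444 TPM, lie above the rest.

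Injury moved members in opposite directions, and the direction depends on the scale. limma on log2(TPM + 1) called 25 members higher and 21 lower than control at 3 DPI (adjusted p under 0.05), 29 and 22 at 7 DPI, 11 and 16 at 14 DPI, and 11 and 13 at 28 DPI. Over all 11328 tested genes the shares called higher were 74.6%, 78.8%, 65.6% and 67.9%, and the shares called lower were 10.6%, 9.44%, 6.64% and 3.93%. The member median log2 fold change was 0.03, 0.08, -0.04 and 0.00 on the 4 days, beside 0.96, 0.91, 0.53 and 0.52 for the median tested gene. Relative to the median gene, the family sat 0.93, 0.84, 0.57 and 0.51 lower. After division by median-of-ratios size factors, which bring the median gene to 0.09, 0.08, 0.02 and 0.04, no member was called higher on any day, and 68, 66, 68 and 66 were called lower, with medians of -1.10, -1.001, -0.73 and -0.67. On that scale 37.7%, 38.8%, 36.3% and 33.2% of all tested genes were called lower. Every member called lower than control on the TPM scale, 21, 22, 16 and 13 on the 4 days, was also called lower with size factors. Size factors moved the members down together, so that this result could hardly come out otherwise. Of the members called higher, 25 of 25, 27 of 29, 9 of 11 and 11 of 11 fell below 0 with size factors, and 23, 25, 9 and 7 of them were called lower there. In every sentence that follows, higher and lower are on the TPM scale, unless the size-factor scale is named. Only Mrpl52 and Mrpl49 at 7 DPI passed a log2 fold change of 1 upward, Mrpl52 alone at 3 DPI, and Mrps36 alone fell by more than 1, at 3 DPI. The shares of all tested genes past that fold were 48.3% upward and 4.24% downward at 3 DPI, 45.6% and 2.42% at 7 DPI, 25.0% and 0.547% at 14 DPI, and 21.1% and 0.212% at 28 DPI.

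**Figure D2:**
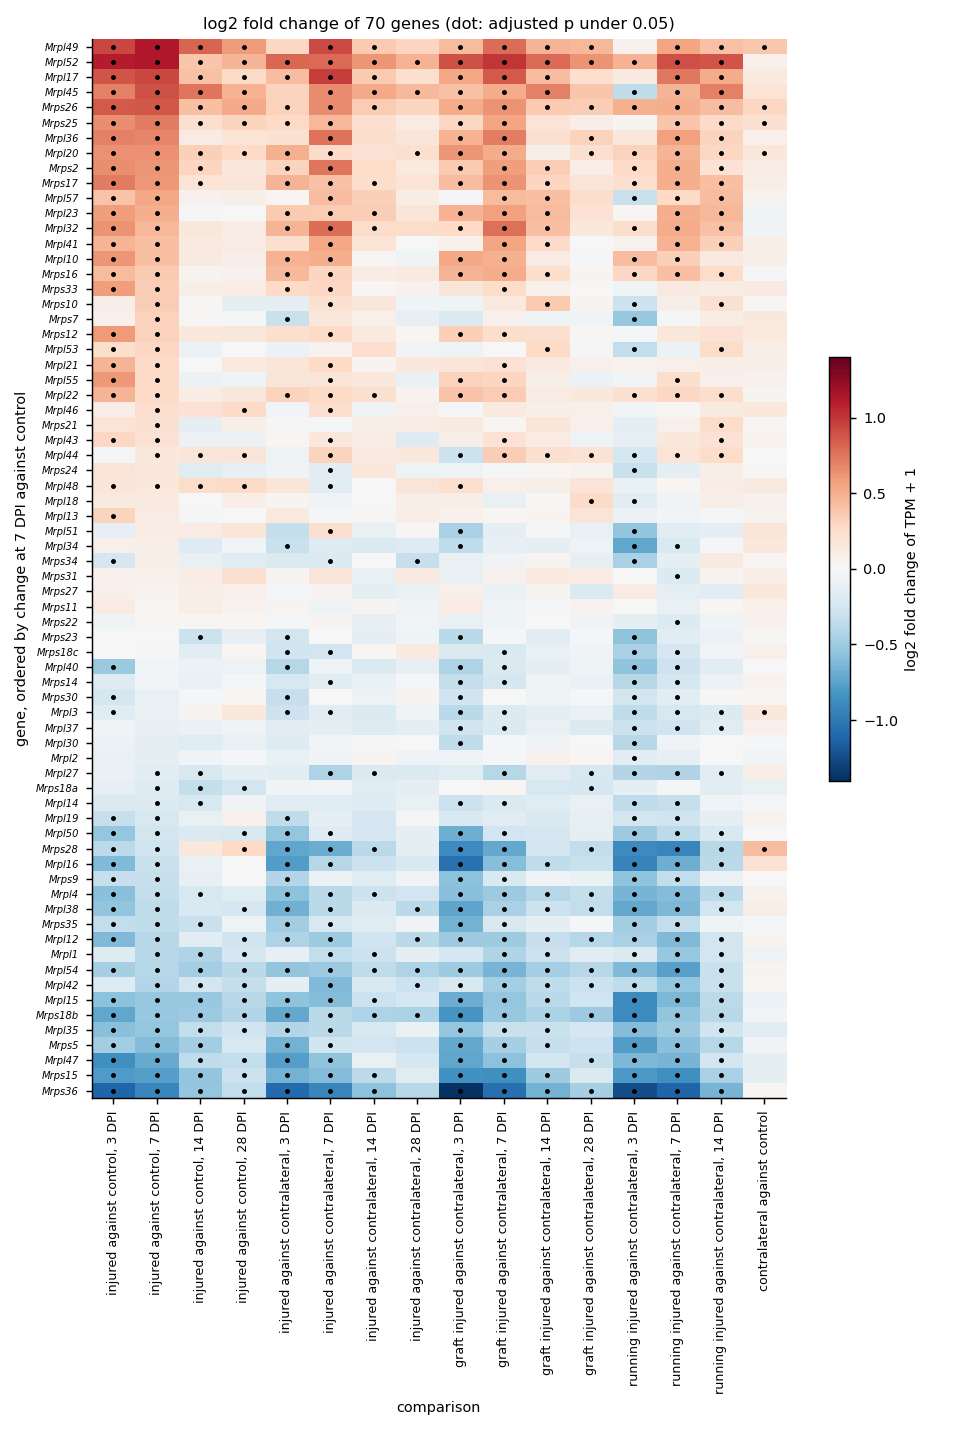
log2 fold change of TPM + 1 (colour) of the 70 genes (rows, ordered by the change at 7 DPI against control) in 16 comparisons (columns); dots mark an adjusted p under 0.05. At 7 DPI against control, on this TPM scale, Mrpl49 and Mrpl52 lead the genes above 0 and Mrps36 the genes below. Other genes lead in some of the other comparisons. With size factors no member was called higher in any of the 16 comparisons.

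Mrpl52, a large-subunit protein, had 40.75, 41.69, 44.06 and 47.11 TPM in control muscle and 83.89, 95.51 and 102.6 TPM in the 3 injured muscles at 3 DPI. At 7 DPI the 8 injured muscles had a lowest of 77.05, a median of 99.69 and a highest of 113.4 TPM, at 14 DPI 55.43, 55.94, 56.22 and 60.07, and at 28 DPI 58.38, 59.23, 59.79 and 66.28. The injured muscles lay above all 4 control muscles on each day. The log2 fold change was 1.09 ± 0.12 (SE), 1.12 ± 0.098, 0.38 ± 0.11 and 0.48 ± 0.11 on the 4 days, with limma adjusted p-values of 1.65e-13, 2.01e-18, 0.00184 and 0.000134. With size factors the value was -0.04, 0.05, -0.30 and -0.19 on the 4 days, and at 14 DPI it was called lower (adjusted p = 0.0289).

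Mrpl49, another large-subunit protein, was also higher than control on each day. Contralateral muscles of non-running rats stood above control in Mrpl49 too, by 0.38 ± 0.098. Against contralateral muscle Mrpl49 was called higher in 8 of 11 comparisons, but not at 3 or 28 DPI in non-repaired, non-running rats. Its control muscles had 25.32, 38.91, 44.56 and 51.13 TPM, and its injured muscles had 73.08, 74.03 and 77.14 TPM at 3 DPI, and a lowest of 66.64, a median of 87.03 and a highest of 101.5 TPM at 7 DPI. At 14 DPI they had 60.32, 71.48, 71.53 and 73.51 TPM, and at 28 DPI 54.26, 54.35, 59.72 and 69.87, again with no overlap with control. Its log2 fold change was 0.93 ± 0.14, 1.12 ± 0.11, 0.82 ± 0.13 and 0.60 ± 0.13 (limma adjusted p = 2.10e-09, 3.30e-16, 2.23e-08 and 2.15e-05), and with size factors it was -0.20, 0.05, 0.14 and -0.06, called on no day.

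Other large-subunit genes rose alongside. Mrpl17 had 120.7, 152.9, 156.9 and 168.0 TPM in control and 252.4, 268.7 and 306.7 TPM at 3 DPI, and changed by 0.88, 0.93, 0.41 and 0.27 on the 4 days. Mrpl45, which helps anchor the ribosome to the inner membrane, changed by 0.70, 0.90, 0.75 and 0.49, with a range of 51.13 to 101.3 TPM at 7 DPI and 34.5 to 48.36 in control. Mrps26, a small-subunit gene, changed by 0.86, 0.87, 0.42 and 0.53. Without control muscle 4 the change of Mrps26 at 14 DPI (0.24), of Mrpl45 at 28 DPI (0.38) and of Mrps25 at 28 DPI (0.16) no longer passed the test, and Mrpl45 at 28 DPI was also lost without injured muscle 3 (0.35). Control muscle 4 held 7866 symbols above 1 TPM, the fewest of the kept libraries, beside 8760, 8872 and 8914 in the other control muscles. The part of this in the calls was not tested. Mrpl17, Mrpl20, Mrpl45, Mrpl48, Mrpl49, Mrpl52, Mrps25 and Mrps26 were called higher on all 4 days, 8 in all, beside 58.8% of all tested genes, and with size factors none of them was called higher on any day. On that scale 6, 4, 6 and 4 of the 8 were called lower on the 4 days. Mrpl20 (-0.50, -0.44, -0.35 and -0.40), Mrpl48 (-0.96, -0.93, -0.43 and -0.40) and Mrps25 (-0.48, -0.35, -0.46 and -0.35) were called lower on each day, Mrpl17 at 3, 14 and 28 DPI, Mrps26 at 3, 7 and 14 DPI, Mrpl45 at 3 DPI and Mrpl52 at 14 DPI. The 4 comparisons share their control muscles. Mrpl20 (0.16), Mrpl49 (0.38), Mrps25 (0.22) and Mrps26 (0.29) were also called higher in contralateral than in control muscle.

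The opposite group was led by Mrps36 at 3 and 7 DPI, while Mrps15 (-0.55) was lowest at 14 DPI and Mrps18b (-0.41) at 28 DPI. Mrps36 had 175.5, 193.6, 195.7 and 200.3 TPM in control muscle and 75.44, 90.09 and 98.93 TPM in injured muscle at 3 DPI. At 7 DPI the 8 muscles had a lowest of 65.40, a median of 110.6 and a highest of 132.5 TPM, at 14 DPI 115.2, 123.3, 137.9 and 152.3, and at 28 DPI 109.8, 155.0, 166.8 and 176.8 TPM, where the highest touched the control range. The log2 fold change was -1.12 ± 0.16, -0.91 ± 0.13, -0.54 ± 0.15 and -0.35 ± 0.15 (limma adjusted p = 1.16e-09, 5.76e-10, 0.000929 and 0.0298), and with size factors it was -2.26, -1.996, -1.23 and -1.03, called on each day. The call at 28 DPI was lost without control muscle 1 (-0.34), without control muscle 2 (-0.33), without injured muscle 4 at 28 DPI (-0.20) and with the 2 muscles of each control rat averaged (-0.35).

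Mrps15, the counterpart of a bacterial small-subunit protein, had 83.09, 90.01, 94.18 and 95.58 TPM in control and 50.88, 52.23 and 52.30 TPM at 3 DPI, then a range of 36.08 to 64.07 TPM at 7 DPI, 59.22 to 63.12 at 14 DPI and 67.91 to 77.01 at 28 DPI. It lay below all control muscles on each day and changed by -0.79, -0.77, -0.55 and -0.30. Mrpl47, a large-subunit protein, had 18.79, 26.10, 27.39 and 30.00 TPM in control and 12.57, 13.70 and 14.24 TPM at 3 DPI, a change of -0.86 ± 0.12. Mrps18b changed by -0.72, -0.53, -0.51 and -0.41. Mrpl54, the highest gene in control muscle, changed by -0.47, -0.40, -0.47 and -0.38, with 178.4, 188.6 and 208.8 TPM at 3 DPI, and still held 173.2 to 220.1 TPM at 28 DPI. Mrpl15, Mrpl35, Mrpl47, Mrpl54, Mrps15, Mrps18b and Mrps36 were called lower on all 4 days, 7 in all, beside 2.52% of all tested genes, in comparisons that share their control muscles. Leaving out injured muscle 4 at 28 DPI ended the call of Mrpl47 at 28 DPI (-0.24). With size factors at 3 DPI, Mrps15 was at -1.93, Mrpl47 at -1.95, Mrps18b at -1.86 and Mrpl54 at -1.61, and at 28 DPI they were at -0.97, -1.001, -1.09 and -1.06, all called lower.

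Mrps28, a small-subunit protein, was the 1 member called in both directions against control on the TPM scale, beside 1.58% of all tested genes. It was lower at 3 DPI (-0.37 ± 0.12) and 7 DPI (-0.28 ± 0.096) and higher at 28 DPI (0.28 ± 0.11). Its muscles had 41.54, 47.06, 50.23 and 54.25 TPM in control, 35.10, 36.58 and 39.24 at 3 DPI, and 51.85, 54.94, 61.40 and 67.21 at 28 DPI, where the groups overlapped. With size factors it was lower on all 4 days, at -1.50, -1.35, -0.53 and -0.39. Contralateral muscles of non-running rats also stood above control in Mrps28, by 0.43 ± 0.087. Against contralateral muscle Mrps28 was called lower in 9 and higher in 0 of 11 comparisons. Mrps11 and Mrps27 were called in none of the 4 comparisons with control nor in any of the 11 comparisons with contralateral muscle.

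**Figure D3:**
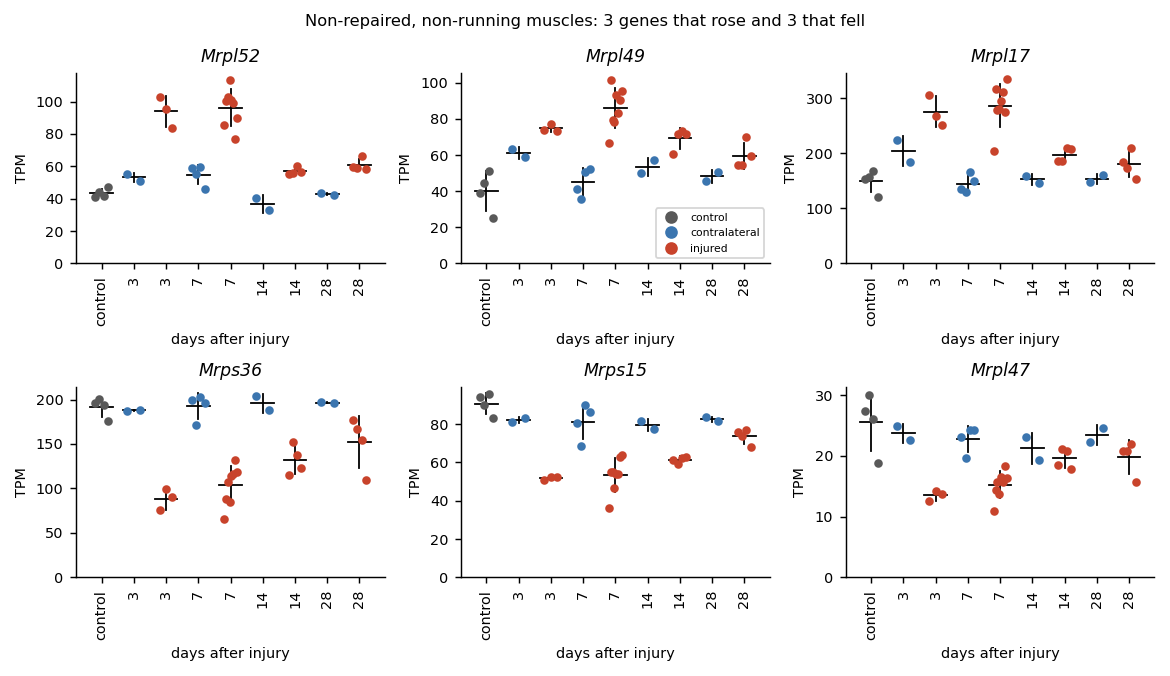
TPM (y axis) of 3 genes that rose and 3 that fell against control on the TPM scale, in each non-repaired, non-running muscle, by days after injury (x axis); points are muscles, horizontal bars are means and vertical bars are SD. Mrps36 is at 75.44 to 98.93 TPM in injured muscle at 3 DPI against 175.5 to 200.3 TPM in control; with size factors the 3 genes in the upper row were not called higher.

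Contralateral muscles gave a comparison within operated rats, in 3 sets of rats that share no muscle: non-repaired, graft and running. Higher and lower members numbered 13 and 24 at 3 DPI in non-repaired rats, 26 and 24 at 7 DPI, 9 and 9 at 14 DPI, and 3 and 6 at 28 DPI, beside 56.0%, 80.0%, 60.9% and 47.1% of all tested genes called higher and 15.9%, 8.32%, 2.81% and 2.58% called lower. In graft rats they numbered 18 and 28, 23 and 25, 15 and 13, and 7 and 11 (62.2%, 76.6%, 64.5% and 59.1% higher over all genes, 16.6%, 11.9%, 4.71% and 3.41% lower). In running rats, over both repair arms, they numbered 9 and 41 at 3 DPI, 19 and 30 at 7 DPI, and 21 and 19 at 14 DPI (64.3%, 73.6% and 70.9% higher, 19.8%, 12.3% and 7.79% lower). At 3 DPI the 2 libraries of the injured muscle of rat 002, whose averaged sum of 4067 TPM was the lowest of its group, had 14.2% and 14.8% of TPM in the rRNA symbols, against 0.086% to 0.506% in the other 18 running libraries of that day. Without this muscle the counts were 10 higher and 40 lower, beside 64.6% and 19.6% of all tested genes. With size factors no member was called higher in any of the 11 comparisons and 57 to 69 were called lower. The share of all genes called lower was then 34.3%, 38.1%, 30.0% and 23.1% in non-repaired rats, 36.9%, 39.1%, 31.5% and 27.5% in graft rats, and 39.6%, 38.1% and 35.8% in running rats. Late counts rested on few contralateral muscles. At 14 DPI in non-repaired rats the count fell from 18 to 6 without contralateral muscle 1, to 5 without contralateral muscle 2 and to 11 without injured muscle 3. At 28 DPI it fell from 9 to 3 without contralateral muscle 1 and to 4 without contralateral muscle 2. In graft rats it fell from 28 to 13 at 14 DPI without either contralateral muscle, and at 28 DPI from 18 to 5 without either contralateral muscle and to 7 without injured muscle 2.

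At 7 DPI, 19 members were called higher and 21 lower in all 3 sets of rats, and no member was called in opposite directions. Of all tested genes 72.4% were called higher and 8.02% lower in all 3 sets, and 0.0441% in opposite directions. At 3 DPI the members numbered 9 and 21 (54.1% and 14.2% of all genes), with Mrpl45 the 1 member called both ways: it was -0.36 ± 0.13 in running rats and 0.41 ± 0.18 in graft rats, and with size factors the graft value was -0.29 and was not called. Of all tested genes 0.0706% were called both ways at 3 DPI. At 14 DPI they numbered 8 and 7 (58.1% and 2.67% of all genes). At 28 DPI, where 2 sets could be compared, Mrpl20 and Mrpl52 were higher and Mrpl12, Mrpl38, Mrpl42, Mrpl54 and Mrps18b lower in both, beside 45.8% and 2.1% of all genes. Mrps36 changed at 7 DPI by -0.92 ± 0.13 in non-repaired, -1.06 ± 0.11 in graft and -1.12 ± 0.13 in running rats. Mrpl52 changed by 0.79 ± 0.098, 1.00 ± 0.087 and 0.90 ± 0.098 in the same order, and Mrpl17 by 0.97 ± 0.085, 0.86 ± 0.075 and 0.74 ± 0.085. Mrps28 changed by -0.69, -0.72 and -0.93. Mrpl16, a large-subunit protein, changed at 3 DPI by -0.78 ± 0.17, -1.05 ± 0.15 and -0.94 ± 0.10.

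**Figure D4:**
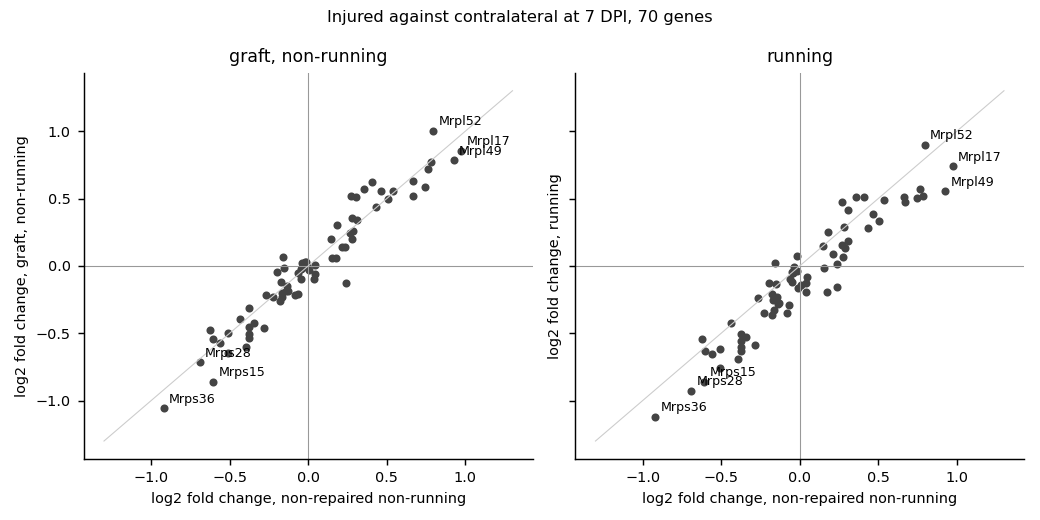
log2 fold change of each of the 70 genes, injured against contralateral muscle at 7 DPI, in non-repaired non-running rats (x axis) against graft rats (left panel, y axis) and running rats (right panel, y axis), on the TPM scale; the grey diagonal marks equal values. Mrpl52, Mrpl17 and Mrpl49 lie at the upper right and Mrps36, Mrps28 and Mrps15 at the lower left in both panels, and with size factors no gene was called higher in these 3 comparisons.

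Consecutive days were also compared. Between 3 and 7 DPI in non-repaired, non-running injured muscle 7 members rose and 7 fell (13.8% and 25.0% of all tested genes), with Mrpl40 (0.48) and Mrps34 (0.31) at the top and Mrpl55 (-0.34) and Mrps12 (-0.27) at the bottom. The total of 14 became 3 without injured muscle 1 at 3 DPI, 8 without muscle 2 and 9 without muscle 3. Between 7 and 14 DPI 7 members rose and 29 fell (6.56% and 64.5% of all tested genes). The steepest falls of that step were in Mrpl52 (-0.74 ± 0.098), Mrpl36 (-0.56), Mrpl23 (-0.54) and Mrpl17 (-0.52), all 4 of them higher than control at 7 DPI, and the steepest rises were in Mrps28 (0.43), Mrps36 (0.37), Mrpl47 (0.35), Mrpl12 (0.24) and Mrps15 (0.22), all 5 of them lower than control at 7 DPI. The 7 DPI muscles enter both comparisons with opposite sign, so the position against control is no separate evidence. With size factors 40 members rose and 1 fell over that step (21% and 27.2% of all genes). Between 14 and 28 DPI limma called 0 members, with 4 at an unadjusted p under 0.05, beside 1.28% of tested genes called in either direction.

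Few of these genes separated contralateral from control muscle. Over the 8 non-running contralateral groups together, 6 members were called higher and 0 lower, beside 24.3% and 0.45% of all tested genes, and 9 members had an unadjusted p under 0.05. With size factors 0 were higher and 21 lower, beside 12.4% of all genes lower. Mrps28 was highest, at 0.43 ± 0.087 (limma adjusted p = 0.000175). Its control muscles were at 41.54 to 54.25 TPM and its non-repaired contralateral muscles at 58.33 to 71.13 TPM, which did not overlap. The graft contralateral muscles also enter the change but are left out of that range. Mrpl49 (0.38), Mrps26 (0.29), Mrps25 (0.22) and Mrpl20 (0.16) followed. Of these 6 calls, 1 was left when the muscles of each control rat were averaged and 1 without control muscle 4, while 10 were called without control muscle 2. Fibroblast markers stood higher in the contralateral muscles, where 10 of 10 were called with a median of 1.46, as did 11 of 15 leukocyte markers with a median of 0.85. Their part in the small rises was not tested.

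Neither repair nor running gave a member past the test in injured muscle. For graft against non-repaired injured muscle limma called 0 members on each of 3, 7, 14 and 28 DPI, with 3, 2, 0 and 0 at an unadjusted p under 0.05. Of all tested genes 0.0441%, 8.19%, 0.0441% and 0.0% were called. The member median was -0.03, 0.03, 0.05 and -0.01, and the 95% intervals of all 70 members lay within 0.5 of 0 at 7, 14 and 28 DPI and those of 69 at 3 DPI. The largest difference at 7 DPI by p was in Mrpl32, at 0.16 ± 0.068 (limma adjusted p = 0.119). Without rat 011, the one with the low sum, Mrpl38 (-0.22) and Mrps15 (-0.21) were called lower in graft muscle at 7 DPI, 2 in all.

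For running against non-running injured muscle, averaged over the repair arms, limma called 0 members on each day, with 9, 6, 1 and 14 at an unadjusted p under 0.05. Of all tested genes 1.07%, 0.00883%, 0.0% and 1.5% were called. The medians were -0.03, -0.03, 0.03 and -0.09, and the 95% intervals of 70, 70, 70 and 69 members lay within 0.5 of 0. Mrpl17 at 28 DPI came nearest, at -0.26 ± 0.085 (limma adjusted p = 0.107). Without rat 011 Mrpl37 was called lower at 7 DPI (-0.19), and with the rat number range as a covariate Mrpl15, Mrpl37 and Mrpl4 were called lower at 3 DPI (-0.18, -0.19 and -0.19), 3 in all.

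The injury effect itself, injured minus contralateral, also differed between arms in 0 members. For graft against non-repaired rats 0, 6, 0 and 0 members had an unadjusted p under 0.05 at 3, 7, 14 and 28 DPI, and for running against non-running rats 22, 4 and 0 at 3, 7 and 14 DPI. Of all tested genes 0.00883%, 0.0%, 0.0% and 0.0% were called in the first comparison and 0.556%, 0.0% and 0.0% in the second. At 3 DPI the running difference was below 0 in 61 of 70 members, with a median of -0.13 beside 0.04 for all tested genes, and Mrpl45 came nearest to the threshold at -0.72 ± 0.19 (limma adjusted p = 0.0502). It passed with the rat as a random block (-0.72, limma adjusted p = 0.0442), with size factors (-0.75, 0.029), centred on the members' mean (-0.57, 0.0232, where Mrps35 passed too), with a pseudocount of 0.1 (-0.73, 0.0498) and with the rat number range as a covariate (-0.78, 0.0106, where Mrpl34 passed too). It also passed without non-repaired running contralateral muscle 2 (-0.79) or non-repaired non-running contralateral muscle 1 (-0.80), which left 1 call each. The high running non-repaired contralateral muscles at 3 DPI, with 6186 and 6444 summed TPM, enter this difference.

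Both name series held members of either direction. On the 4 days against control, Mrpl members had medians of 0.03, 0.11, -0.07 and -0.01, and Mrps members 0.03, 0.04, -0.002 and 0.02. By symbol number alone, 38 members carry numbers also used for bacterial ribosomal proteins (Mrpl up to 36, Mrps up to 21) and 32 carry higher numbers, a split by name that is no statement on the origin of a protein. Of the 38 low-numbered members 13, 15, 4 and 2 were called higher and 11, 14, 10 and 7 lower on the 4 days, and of the 32 high-numbered members 12, 14, 7 and 9 were called higher and 10, 8, 6 and 6 lower. These counts stand beside the shares of all tested genes given above, and the difference between these sets was not tested. With subunits taken from the symbols, the ratio of summed Mrpl to summed Mrps TPM was 1.63 ± 0.03 (SD, n = 4) in control and 1.81 ± 0.03 (n = 3), 1.79 ± 0.02 (n = 8), 1.74 ± 0.02 (n = 4) and 1.67 ± 0.01 (n = 4) in injured muscle at 3, 7, 14 and 28 DPI. The ranges were 1.588 to 1.659 in control and 1.788 to 1.843 at 3 DPI. Without Mrps36 alone the ratio was 1.82 ± 0.04 in control and 1.91 ± 0.04, 1.895 ± 0.021, 1.896 ± 0.0041 and 1.83 ± 0.03 on the 4 days. With Mrps30 and Mrps18a also counted in the large subunit, where structures place them, it was 2.06 ± 0.05 (SD, n = 4) in control and 2.12 ± 0.03, 2.10 ± 0.02, 2.12 ± 0.004 and 2.04 ± 0.04, and the ranges of control (1.997 to 2.114) and 3 DPI (2.093 to 2.149) overlapped. The ratios are a description with no test.

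Other genes of mitochondrial translation are given beside the 74.6% and 10.6% of all tested genes called higher and lower at 3 DPI and the 78.8% and 9.44% at 7 DPI. Of 6 mitoribosomal proteins that carry other symbols, 3 rose and 2 fell at 3 DPI, and 3 rose and 3 fell at 7 DPI. Dap3, a GTP-binding small-subunit protein, changed by 1.20 ± 0.11 at 3 DPI and 0.61 ± 0.11 at 28 DPI, and Ptcd3, an RNA-binding small-subunit protein, by 1.18 ± 0.21 and 0.56 ± 0.20. Gadd45gip1 changed by -0.31 ± 0.096 at 3 DPI and -0.49 ± 0.077 at 7 DPI. Of 14 tested translation factors 3 rose and 4 fell at 3 DPI. Mtfmt, which formylates the initiator methionine, changed by 1.19 ± 0.14, and Guf1, an elongation factor, by -0.74 ± 0.13. Mss51, which is known from skeletal muscle, changed by -2.49 ± 0.27 at 3 DPI and 0.24 ± 0.25 at 28 DPI. Of 19 tested assembly and rRNA modification genes 8 rose and 2 fell at 3 DPI and 11 and 2 at 7 DPI. Mpv17l2, needed for large-subunit assembly, changed by 2.30 ± 0.18 and 1.75 ± 0.14, and Mterf3 by 0.80 and 0.70, while Eral1, a small-subunit chaperone, changed by -0.41 and -0.23. Of 12 tested mitochondrial aminoacyl-tRNA synthetases, which charge the tRNAs, 5 rose and 3 fell at 3 DPI and 7 rose and 0 fell at 28 DPI (67.9% and 3.93% of all tested genes). Rars2 changed by 0.77 ± 0.12 at 3 DPI and Aars2 by -0.61 ± 0.14. Of 15 regulators of mitochondrial transcription and biogenesis 6 rose and 4 fell at 3 DPI. Ppargc1a, a coactivator of mitochondrial biogenesis, changed by -1.41 ± 0.28, Tfb2m by -0.79 ± 0.15 and Esrra by -0.70 ± 0.14, while Myc changed by 3.47 ± 0.24, Nrf1 by 1.36 ± 0.13 and Pprc1 by 1.23 ± 0.15. The medians of the 5 lists at 3 DPI were 0.33, -0.02, 0.20, 0.09 and 0.03, all below the 0.96 of the median tested gene. With size factors they were -0.81, -1.12, -0.76, -0.93 and -1.04, with 0, 0, 1, 0 and 3 genes called higher and 4, 13, 18, 12 and 10 lower.

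The members stood between 2 families that share a side of their biology. The 82 tested cytosolic ribosomal protein genes had medians of 1.39, 1.10, 0.40 and 0.34 on the 4 days, with 81, 81, 56 and 58 called higher and 1, 1, 2 and 0 lower. The 69 tested nuclear genes for oxidative phosphorylation subunits, partners of the proteins that the mitoribosome makes, had medians of -0.92, -0.59, -0.22 and -0.11, with 5, 5, 5 and 6 higher and 62, 59, 30 and 11 lower. Of all tested genes 74.6%, 78.8%, 65.6% and 67.9% were called higher on the 4 days and 10.6%, 9.44%, 6.64% and 3.93% lower. With size factors the medians of the cytosolic genes, the members and the oxidative phosphorylation genes were 0.25, -1.10 and -2.07 at 3 DPI. At 7 DPI they were 0.01, -1.001 and -1.68. On that scale the cytosolic genes had a median near that of all genes. A size factor moves all genes of a muscle nearly alike, so it could hardly change the order of these medians. The cytosolic sum rose from 56970 to 65260 TPM in control muscle to 132900 to 173200 TPM at 3 DPI, and the oxidative phosphorylation sum went from 60930 to 68390 down to 32070 to 33970, while the sum of the 70 members went from 4280 to 5078 TPM to 4708 to 5108.

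**Figure D5:**
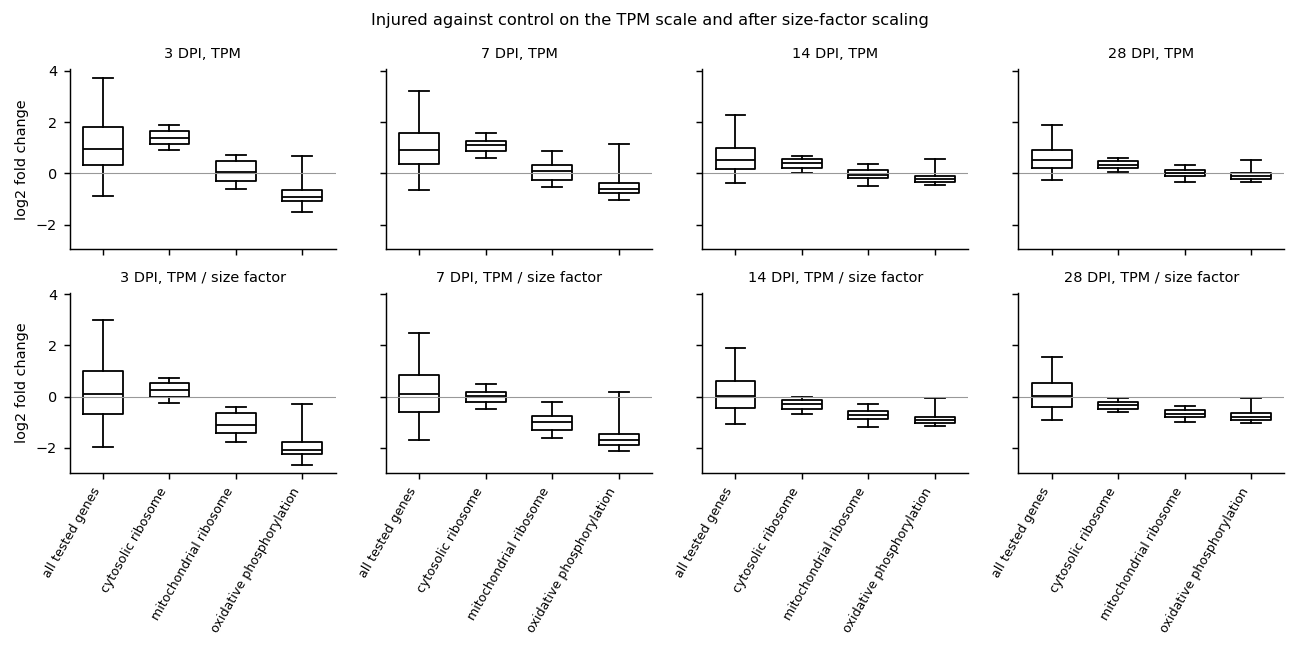
log2 fold change of injured against control muscle (y axis) for all tested genes and 3 gene families (x axis) on each day, on the TPM scale (upper row) and after size-factor scaling (lower row); boxes span the quartiles, lines mark medians and whiskers run from the 5th to the 95th percentile. The mitochondrial ribosome lies between the cytosolic ribosome and oxidative phosphorylation, with medians of 0.03 at 3 DPI in the upper row and -1.10 in the lower row.

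Markers of other cells moved with these changes. All 16 skeletal muscle markers were lower at 3 DPI, with a median of -2.19 and a summed level of 63880 to 88020 TPM in injured muscle against 317500 to 389200 in control. All 15 tested leukocyte markers were higher, with a median of 5.69 and sums of 5543 to 7459 against 23.82 to 48.37 TPM, and 10 of 10 fibroblast markers were higher with a median of 5.30 and sums of 5511 to 9715 against 91.14 to 270.9 TPM. Cell cycle genes were higher in 14 of 14 (median 4.14), endothelial markers in 6 of 8 and Schwann cell markers in 5 of 6. Of all tested genes 74.6% were called higher and 10.6% lower at 3 DPI. The endothelial and Schwann cell counts lie near that share of higher calls. At 28 DPI 4 of 16 muscle markers were lower (median -0.31), beside 3.93% of all tested genes, and fibroblast markers still had a median of 4.22. The part of these cells in the members' changes was not tested, and in whole muscle fewer cells of a type and less RNA per cell cannot be told apart.

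Head-to-head neighbours, whose start lies on the other strand within 500 bases before the start of a member, were found for 15 members. Distances are between the starts that RefSeq gives for the promoter windows. Mrpl49 starts 186 bases from Fau, which encodes a cytosolic ribosomal protein, and the 64 bases between the annotated genes (chr1:212779365-212779428, plus strand, the GC box in capitals) are shown because both genes rose on the TPM scale.
Mrpl49 and Fau: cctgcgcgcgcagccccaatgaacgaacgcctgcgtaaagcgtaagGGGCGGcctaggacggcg
Fau changed by 1.39, 1.10, 0.48 and 0.52 on the 4 days against 0.93, 1.12, 0.82 and 0.60 for Mrpl49. Mrpl47 starts 244 bases from Ndufb5, a subunit of complex I, and both were lower: Ndufb5 changed by -1.33, -0.88, -0.38 and -0.28. Mrpl32 and its neighbour Psma2, a proteasome gene 210 bases away, were both higher at 7 DPI (0.47 and 0.95), as were Mrps7 (0.33) and Gga3 (0.49). Of all tested genes 78.8% were called higher and 9.44% lower at 7 DPI, and the median gene changed by 0.91. A higher neighbour is thus the usual case, and joint change of the pairs was not tested. The other measured pairs were mixed. Mrpl18 (0.12) was not called while Tcp1 was higher (0.34). Mrpl40 (-0.04) and Mrps18c (-0.03) were not called while Hira (0.78) and Helq (0.54) were higher, and Mrps27 (0.05) was not called while Ptcd2 was lower (-0.29). Mrpl27 was lower (-0.16) and Eme1 higher (0.82) at 7 DPI, and Mrpl30, at -0.13, was not called while Mitd1 changed by 2.02. Mrpl46 and Mrps11, 2 members that start 234 bases apart on chromosome 1, changed by 0.24 ± 0.085 and 0.03, of which only the first passed.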

How the data were processed

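The authors ran kallisto on RNA sequencing reads of rat TA muscle and deposited TPM values per gene symbol. The genome was the GenBank rat build named in the study's methods. TPM values were used as deposited. Libraries with fewer than 7000 symbols above 1 TPM were left out, 2 muscles with more than 1 library were averaged, and 9 libraries whose titles and labels disagreed on muscle or day entered no comparison. One limma model (limma 3.58.1, R 4.3.3, trended variance) on log2(TPM + 1) covered all groups, genes with a mean above 1 TPM in at least 1 group were tested, and p-values were adjusted by Benjamini-Hochberg over 11328 genes (threshold 0.05, 83 residual degrees of freedom). Tables and figures were made with Python 3.11.15, pandas 2.3.3, numpy 2.4.6, scipy 1.17.1 and matplotlib 3.10.9, and the random rat block used statmod 1.5.0.

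Size factors were the median of ratios computed on TPM. Other alternatives were a pseudocount of 0.1, no filter on low values, all libraries kept, the rat as a random block, the rat number range as a covariate (control rats coded with the later range), control muscles averaged per rat, each muscle left out in turn in groups of 2 to 5, and, added after the data were seen, centring on the members' mean, leaving out rat 011 and leaving out the injured muscle of rat 002. An injured and a contralateral muscle were present for 34 rats, and these muscles are paired by animal. The deviations of both muscles of a rat from their group means had a mean correlation of 0.0944 over these pairs, against -0.0002 between rats, and the fitted block correlation was 0.026. On simulated data for the comparison at 7 DPI with control, run on 9456 genes, 46 of 50 genes raised by 1 and 48 of 50 lowered by 1 on the log2 scale were called, 29 of 50 raised and 34 of 50 lowered by 0.5 were called, and 8 unchanged genes were called. The simulated data held independent noise and few changed genes, without the shift of most genes seen in the real comparison. These rates therefore need not hold there. Named genes are the 5 highest and 5 lowest called members of a comparison, the 5 highest and 5 lowest in control, and up to 3 genes at each end of a companion list; members called on all 4 days, in both directions or in none are named for their counts, and those with promoter neighbours for their position. The members and gene lists were chosen with earlier results of these data known. Among the 138 libraries no pair held identical values.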

Additional observations from a re-analysis of the deposited data

Results flagged for a closer look

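In groups of 4 to 10 muscles, 46 sets of values were searched for a muscle far from the rest, a rule that picks about 1 in 20 by chance, and 5 were found. The summed TPM of the members was lowest in 1 graft, non-running injured muscle at 3 DPI (4382) and in 1 non-repaired, non-running injured muscle at 7 DPI (3696, rat 011). The library of rat 011 had 16.2% of its TPM in 5 rRNA symbols, against 0.083% to 0.291% in the other 7 of its group, and the part of this in the low value was not tested. Mrpl17 was lowest at 203.9 TPM in the non-repaired, non-running injured group at 7 DPI. In the same kind of muscle at 14 DPI, Mrpl52 was highest at 60.07 TPM in 1 muscle and Mrpl49 lowest at 60.32 TPM in 1 muscle.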

How the results depend on the processing

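TPM keep no depth, and a size factor computed on TPM moves every member together. The upward calls depended on the scale. Each member called lower against control on TPM was also called lower with size factors. Size factors moved the members down together against control, so these calls could hardly be lost and are no separate evidence. The numbers of members called, in both directions together, moved by over 1.5 times as follows. With all libraries kept they were 0, 4, 0 and 0 against control at 3, 7, 14 and 28 DPI, 0 against contralateral at 3, 14 and 28 DPI, 1, 3, 0 and 0 in graft rats, 1, 1 and 0 in running rats, and 0 for contralateral against control and for the steps from 3 to 7 and from 7 to 14 DPI. With size factors they were 68 and 66 against control at 14 and 28 DPI, 58, 66 and 57 against contralateral at 3, 14 and 28 DPI, 63 and 65 in graft rats at 14 and 28 DPI, 66 in running rats at 14 DPI, 21 for contralateral against control and 1 for the injury effect of running at 3 DPI. Centred on the members' mean they were 33 and 21 against contralateral at 14 and 28 DPI, 28 in graft rats at 28 DPI and 2 for the injury effect of running at 3 DPI. With control muscles averaged per rat, contralateral against control gave 1. Leaving out the injured muscle of rat 002 moved none of 3 counts at 3 DPI by over 1.5 times. Without rat 011, graft against non-repaired gave 2 and running against non-running 1 at 7 DPI. With the rat number range as a covariate, running against non-running gave 3 and the injury effect of running 2 at 3 DPI. With a pseudocount of 0.1 the injury effect of running at 3 DPI gave 1. With the replicate block by rat, which uses the pairing by animal, the injury effect of running at 3 DPI gave 1, and no other count moved by over 1.5 times. Leaving out single muscles gave 5 to 20 and 3 to 13 against contralateral at 14 and 28 DPI, 13 to 27 and 5 to 22 in graft rats, 1 to 10 for contralateral against control, 3 to 9 from 3 to 7 DPI and 0 to 1 for the injury effect of running at 3 DPI. Of the calls against control, 38 of 46, 39 of 51, 19 of 27 and 10 of 24 held in every alternative on the TPM scale with the library filter.

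Size factors turned most upward values, and examples follow, which are not the whole set. Against control at 3 DPI they included Mrpl52 (-0.039), Mrpl49 (-0.20), Mrpl17 (-0.26), Mrps26 (-0.26), Mrps17 (-0.39) and Mrpl45 (-0.43), at 7 DPI Mrpl17 (-0.15), Mrpl45 (-0.18) and Mrps26 (-0.19), at 14 DPI Mrps26 (-0.26), Mrpl17 (-0.28) and Mrpl52 (-0.30), and at 28 DPI Mrpl49 (-0.064), Mrps26 (-0.13), Mrpl45 (-0.18), Mrpl52 (-0.19), Mrps25 (-0.35), Mrps28 (-0.39) and Mrpl17 (-0.41). Against contralateral at 7 DPI they included Mrpl17 (-0.12), Mrpl49 (-0.15), Mrpl52 (-0.29), Mrpl32 (-0.29) and Mrpl36 (-0.31), in graft rats Mrpl17 (-0.10), Mrpl49 (-0.16), Mrpl32 (-0.16) and Mrpl36 (-0.22), and in running rats Mrpl17 (-0.14), Mrpl36 (-0.30), Mrpl49 (-0.32) and Mrpl32 (-0.35). For contralateral against control they included Mrps25 (-0.023) and Mrpl20 (-0.083). All libraries kept turned Mrps28 (0.96), Mrpl42 (1.48), Mrps15 (0.85) and Mrpl15 (0.97) against contralateral at 7 DPI and Mrps25 (-0.027) for contralateral against control. Apart from the scaling itself, the cause of these moves was not tested.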

Other observations

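The 9 libraries in no group held summed member levels of 4168 to 5181 TPM, with a median of 4794. In 8 of them, from 4 rats at 28 DPI, the title and the other labels name opposite muscles. The libraries titled injured had 41.97, 42.36, 43.15 and 46.18 TPM of Mrpl52, and those titled control had 52.75, 54.02, 54.80 and 56.17 TPM, so that these values did not overlap. Mrps36 was at 175.1, 183.5, 185.5 and 198.1 TPM in the libraries titled injured and at 136.7, 160.6, 174.5 and 192.6 TPM in those titled control. The sums of all members were 4794, 4816, 4821 and 5181 TPM in the former and 4168, 4535, 4731 and 4747 TPM in the latter. The library labelled with another day than the rest of its rat had 48.52 TPM of Mrpl52, 202.7 TPM of Mrps36 and a sum of 5030 TPM. The libraries titled injured held 8707 to 9090 symbols above 1 TPM and those titled control 9820 to 10161, beside 9899 to 10525 in the 12 libraries of the injured groups and 8912 to 9110 in the 4 of the contralateral groups at 28 DPI. Both these numbers and the Mrpl52 levels lie in the order that goes against the titles and with the other labels. No test was made on these libraries, and they were kept in no group.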
